A study of Mus musculus with 12 samples.

Results

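Potassium channel genes were examined in cultured mouse cortical neurons in which topoisomerase 1 (TOP1, the enzyme that relaxes DNA ahead of RNA polymerase) was inhibited with topotecan, deleted, or both. All genes whose symbol begins with Kcn and whose mean over the 12 libraries was at least 1 CPM (a gene's count scaled to a fixed total count per library) were taken. This rule kept 75 genes in 21 subfamilies of the 97 Kcn symbols in the table, which holds 23893 genes in all, and the other 22 symbols were below the limit. Just inside the limit were Kcne2 (1.09 CPM) and Kcnd3os (1.18 CPM), and just outside it were Kcnj13 (0.975 CPM) and Kcnh8 (0.902 CPM).

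The cultures were made from E13.5 to E15.5 embryos (C57BL6, from C57BL6/J females) carrying the floxed Top1 allele on both chromosomes (Top1 fl/fl), also in the groups named WT. At day in vitro (DIV) 3 they were infected with a lentivirus that expressed either tdTomato (WT, labelled wild-type) or tdTomato together with Cre recombinase (Top1 cKO) from the CaMKIIα promoter, which is active in neurons. At DIV 15 they received 0.003% DMSO (Veh) or 300 nM topotecan (Topot) for 3 days, which gave 4 groups of 3 libraries each: WT-Topot and WT-Veh in cells with Top1, and Top1 cKO-Topot and Top1 cKO-Veh after its deletion. Not all cells were transduced, so that the Top1 cKO cultures retained some cells with TOP1. Topotecan traps TOP1 on DNA, whereas deletion removes the protein, and the comparison of both addressed which of the drug's effects loss of TOP1 shares.

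Library totals were 1730164 to 4583777 counts, and 3 counts corresponded to 0.654 to 1.73 CPM. Top1 itself was at 117 to 163 CPM in the tdTomato libraries and at 27.1 to 44.0 CPM in the CRE libraries, so that every library matched its label. From here on, CPM values use library sizes scaled by the TMM method. Summed markers of neurons were at 6758 to 9047 CPM in the 12 libraries, and those of microglia at 0.437 to 5.14 CPM. Astrocyte markers summed to 971 to 2874 CPM (WT-Veh), 367 to 760 CPM (WT-Topot), 904 to 3109 CPM (Top1 cKO-Veh) and 342 to 1086 CPM (Top1 cKO-Topot), and interneuron markers, for these groups in turn, to 771 to 1699, 521 to 956, 1174 to 1359 and 884 to 1286 CPM. In such mixed cultures fewer cells of a type and less RNA per cell cannot be told apart. The oligodendrocyte lineage markers summed to 98.5 to 297 CPM, the endothelial and mural markers to 8.59 to 43.0 CPM and the proliferation markers to 0 to 4.78 CPM.

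Potassium channels let potassium leave the cell, set the resting potential and end the action potential. Voltage-gated channels (Kcna to Kcnd, Kcnh and Kcnq) open on depolarisation. Related silent subunits (Kcnf, Kcng, Kcns and Kcnv) form no working channel alone and modify voltage-gated channels. Calcium-activated and sodium-activated channels (Kcnma, Kcnn, Kcnt) respond to ions that enter with activity. Inward rectifiers (Kcnj) pass current near rest, and 2-pore channels (Kcnk) carry leak current. Auxiliary subunits (Kcnab, Kcnip, Kcne, Kcnmb) change the gating or surface expression of the pore-forming proteins. Each pore is lined by a short stretch, the selectivity filter, which carries the residues glycine, tyrosine or phenylalanine, and glycine.

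Channels of 1 subfamily can have closely related pores and genes of very different length. The coding sequences around the selectivity filter are shown for 4 pairs of related genes that differ in length, because the changes described further on differed within these subfamilies, and for the long genes Kcnb2 and Kcnma1, which fell. They are GENCODE vM1 coding sequences on the build NCBIM37 (mm9), the capitals mark the codons of the filter's glycine, tyrosine or phenylalanine, and glycine, and gene length is the span from the first to the last annotated base.
Kcnd2: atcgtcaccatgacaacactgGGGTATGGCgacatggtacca
Kcnd3: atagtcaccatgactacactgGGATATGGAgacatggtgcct
Kcnb2: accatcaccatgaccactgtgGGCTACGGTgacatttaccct
Kcnt2: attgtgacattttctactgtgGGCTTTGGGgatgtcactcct
Kcnt1: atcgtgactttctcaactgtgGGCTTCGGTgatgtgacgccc
Kcnh7: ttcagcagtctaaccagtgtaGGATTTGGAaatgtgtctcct
Kcnh2: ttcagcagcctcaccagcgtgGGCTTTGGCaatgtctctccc
Kcnj3: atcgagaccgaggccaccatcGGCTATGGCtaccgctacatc
Kcnj9: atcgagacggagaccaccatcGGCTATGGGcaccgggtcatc
Kcnma1: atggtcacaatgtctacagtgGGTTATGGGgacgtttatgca
Of these 42 bases, Kcnd2 (514 kb) shared 36 with Kcnd3 (222 kb), Kcnt2 (366 kb) 33 with Kcnt1 (54.5 kb), Kcnh7 (491 kb) 34 with Kcnh2 (32.0 kb) and Kcnj3 (162 kb) 35 with Kcnj9 (8.23 kb).

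In Kcnb2, Kcnt2, Kcnh7, Kcnj3 and Kcnma1 the stretch shown lies within 1 exon, for example chr1:15700112-15700153 (+) in exon 2 of Kcnb2 and chr14:24347623-24347664 (-) in exon 7 of Kcnma1. In Kcnd2 it is split: its first 23 bases are at chr6:21167391-21167413 (+) at the end of exon 1 and its last 19 at chr6:21664135-21664153 (+) at the start of exon 2, with an intron of 497 kb between them. The same intron is 199 kb long in Kcnd3. Transcription of Kcnd2 and Kcnd3 thus crosses nearly the whole gene before the codons of the filter are complete.

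A gene length could be found for 74 of the 75 genes, all but the antisense RNA Kcnq1ot1. Their median length was 39.5 kb, from 0.705 kb for Kcng2, whose annotated model is partial, to 1135 kb for Kcnip4, and 21 genes were longer than 100 kb. Long genes were more frequent among them (28.4%) than among all genes at 1 CPM or more (15.1%, 2017 of 13330 with a length). The Kcna genes (median 6.59 kb, 0 of 6 over 100 kb) and Kcns genes (7.50 kb, 0 of 3) were short, whereas Kcnip, Kcnd, Kcnn, Kcnh, Kcnj, Kcnk and Kcnq each held 2 or 3 genes over 100 kb.

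Together the 75 genes took 5405 ± 752 CPM in WT-Veh (SD, n = 3, as for all values below), 4147 ± 245 CPM in WT-Topot, 5413 ± 459 CPM in Top1 cKO-Veh and 5601 ± 517 CPM in Top1 cKO-Topot. Per kb of exon, the highest level in WT-Veh was that of Kcnj4 (an inward rectifier of forebrain neurons) at 114 CPM per kb, followed by Kcnf1 (a silent subunit that modifies Kcnb channels) at 102 and the axonal channel gene Kcna2 at 81.0. These values depend on the annotated exon length, since some models, such as that of Kcng2, hold only part of the transcript.

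Topotecan lowered many of the long potassium channel genes in WT cells, and a few short ones rose. In WT-Topot against WT-Veh, 13 of 75 genes were lower and 3 higher at a false discovery rate (FDR) of 0.01 (edgeR quasi-likelihood test, adjusted over all 23893 genes), while 3.56% of all genes at 1 CPM or more were lower and 1.19% higher. A fit that added replicate number as a block called 19 lower and 5 higher, against 8.71% and 5.62% of all genes. Of the 13, 12 were among the 21 genes over 100 kb and 1 among the 53 shorter ones, and of all genes over 100 kb at 1 CPM or more 17.8% were lower.

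The median log2 fold change was -1.62 in the 21 long genes and 0.12 in the 53 shorter ones. Over all genes above 100 kb and of at most 100 kb it was -0.42 and 0.08. Lengths were not matched within these classes, and 16 of the 21 long genes exceed 200 kb. All 21 long genes had a negative value, as had 23 of the 53 shorter ones. Of all genes at 1 CPM or more, 47.5% had a negative value. The share among all genes over 100 kb was not computed, here or below. Across the 74 genes, length and log2 fold change had a Spearman correlation of -0.592, where -0.257 was found over all 13330 genes with a length. Among the 21 long genes it was -0.851, and it was not computed among all genes over 100 kb. Genes are not independent replicates, so these correlations describe this set. The plot of change against length shows the called genes over 100 kb descending with length.

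**Figure D1:**
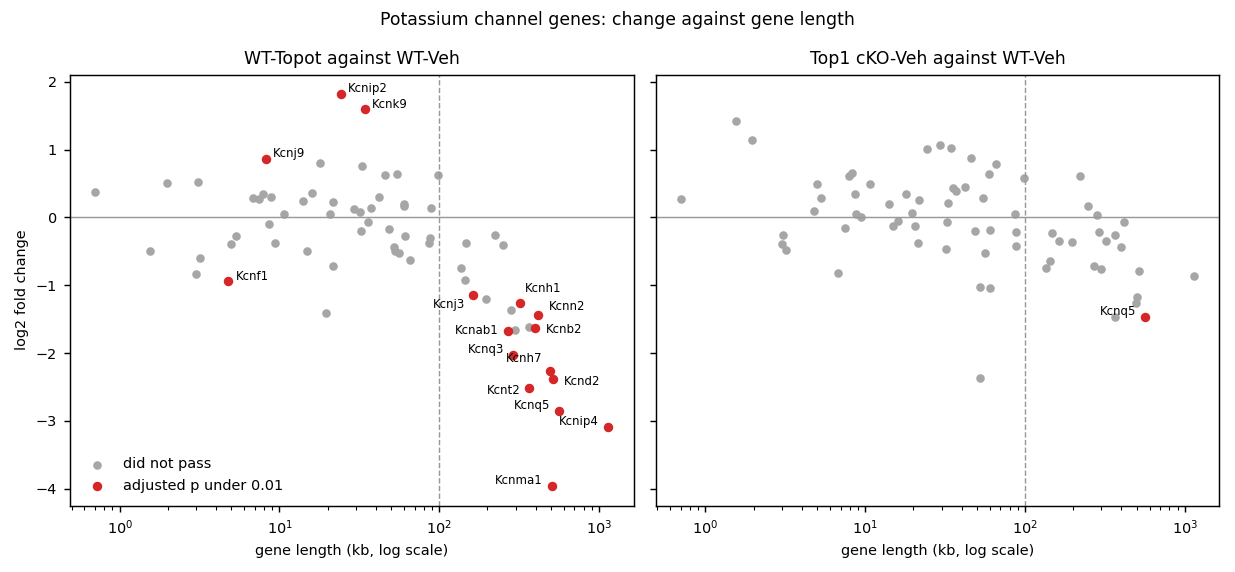
Each point is a potassium channel gene, with its length in kb (log scale) on the x axis and its log2 fold change on the y axis, for WT-Topot (left) and Top1 cKO-Veh (right) against WT-Veh. Red points passed an adjusted p of 0.01 (13 lower and 3 higher on the left, 1 lower on the right), the dashed line marks 100 kb, and 5 genes with at most 3 counts in every library of a group, besides Kcnq1ot1, are not drawn.

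Kcnma1 (BK, the large-conductance calcium-activated channel, chr14:24117983-24622526) fell most. It was at 116, 201 and 118 CPM in WT-Veh and at 4.02, 14.03 and 9.42 CPM in WT-Topot, a log2 fold change of -3.96 ± 0.33 (SE, adjusted p = 3.28e-07). The groups did not overlap, and each drug-treated library was far below each control. After deletion it was at 70.0, 79.9 and 42.1 CPM in Top1 cKO-Veh and at 39.0, 37.9 and 40.7 CPM in Top1 cKO-Topot, between the 2 WT groups. Its log2 difference of Top1 cKO-Veh from WT-Veh, -1.17 ± 0.26, did not pass the test (adjusted p = 0.0525) but did with the replicate block (1.65e-13).

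The auxiliary subunits of BK were low or did not pass. Kcnmb2, whose product inactivates BK, was at 5.37 ± 2.34 CPM in WT-Veh and 1.67 ± 0.81 CPM in WT-Topot. Kcnmb4, the main neuronal subunit, was at 53.4 ± 20.9 and 36.6 ± 6.05 CPM, and its antisense RNA Kcnmb4os1 at 25.2 ± 9.62 and 16.5 ± 2.75 CPM. Whether strand was used in counting is not given, so reads of Kcnmb4 and Kcnmb4os1, like those of Kcnd3 and Kcnd3os, cannot be told apart where they overlap.

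Among the M-channel genes, which encode the slow current that restrains repetitive firing, the long ones fell. Kcnq5 (chr1:21388484-21952023) was at 231, 168 and 222 CPM in WT-Veh and at 25.8, 34.6 and 24.4 CPM in WT-Topot (log2 fold change -2.86 ± 0.21, adjusted p = 6.57e-08). Kcnq3 (chr15:65826733-66117786) was at 54.1, 70.1 and 53.6 CPM in WT-Veh and at 9.72, 20.3 and 12.8 CPM in WT-Topot (-2.03 ± 0.27, adjusted p = 6.28e-05). For both genes all drug-treated libraries lay below all controls.

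The A-type channel genes, whose current is fast and inactivating, and their KChIP subunits moved in both directions. Kcnd2 (Kv4.2, dendritic, chr6:21165503-21679805) was at 123, 182 and 109 CPM in WT-Veh and at 22.8, 24.9 and 31.7 CPM in WT-Topot (-2.39 ± 0.24, adjusted p = 2.04e-06). Kcnd3 (Kv4.3) was at 104, 174 and 99.1 CPM and at 78.4, 134 and 99.8 CPM, which overlapped. The longest gene of all, Kcnip4 (KChIP4, chr5:48780743-49915940), was at 77.2, 54.3 and 94.5 CPM and at 5.03, 13.2 and 7.71 CPM (-3.09 ± 0.31, adjusted p = 2.28e-06), again without overlap.

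The shortest KChIP gene, Kcnip2 (24.2 kb, chr19:45866329-45890551), rose: it was at 61.4, 25.9 and 42.04 CPM in WT-Veh and at 169, 143 and 146 CPM in WT-Topot (1.82 ± 0.24, adjusted p = 6.55e-05). Every drug-treated library was above every control. Kcnip1 (364 kb) was at 16.4, 49.97 and 42.6 CPM and at 5.36, 15.5 and 14.1 CPM, and passed with the block (adjusted p = 1.50e-08) but not without it (0.0195). Kcnip1 is known from interneurons, whose markers had a median log2 fold change of -0.99, with 0 of 7 past the test and 4 lower and 1 higher (Lhx6) with the block. The part of the interneuron markers in this difference was not tested. Kcnip3 (65.6 kb), at 108 ± 39.6 and 69.5 ± 1.98 CPM, passed with the block only (-0.57, adjusted p = 0.00450, and 0.185 without it). Summed over the 4 genes, Kcnip RNA was 263 ± 31.2 CPM in WT-Veh and 242 ± 4.51 CPM in WT-Topot, so the lower and the higher genes left the sum within the spread of the controls.

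**Figure D2:**
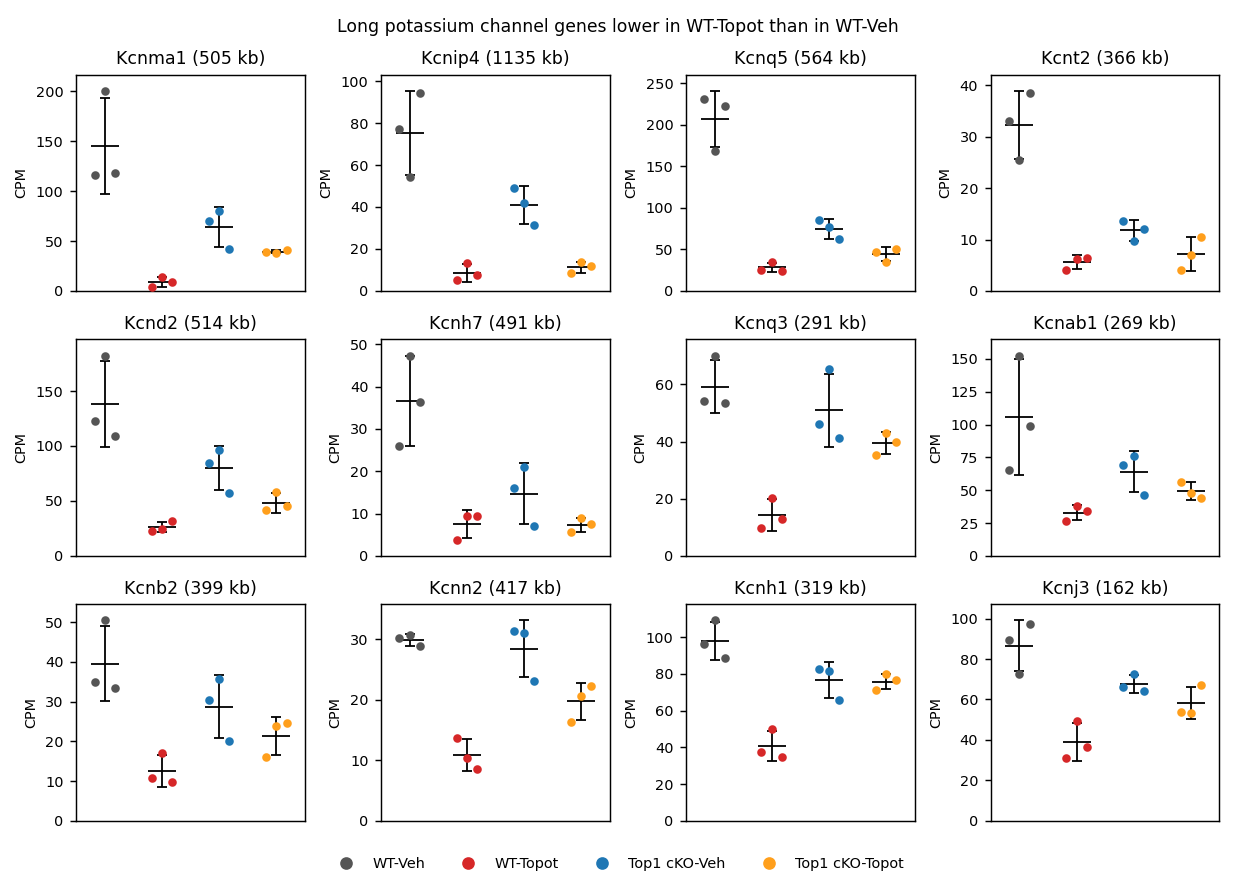
CPM of 12 long genes (over 100 kb) with lower levels in WT-Topot, 1 panel a gene with its length, in the 4 groups. Dots are libraries, horizontal bars the mean and error bars the SD (n = 3), and no WT-Topot dot reaches a WT-Veh dot. The genes were chosen by the test, which favours groups that do not overlap.

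In the remaining voltage-gated subfamilies 3 of 5 long genes fell and most short ones did not pass. Kcnb2 (399 kb, a delayed rectifier) was at 34.8, 50.4 and 33.4 CPM in WT-Veh and at 10.7, 17.2 and 9.85 CPM in WT-Topot (-1.63 ± 0.29, adjusted p = 0.00118). Kcnh7 (491 kb, an Erg channel) was at 26.0, 47.3 and 36.3 CPM and at 3.69, 9.45 and 9.42 CPM (-2.27 ± 0.35, adjusted p = 0.000268). Kcnh1 (319 kb, Eag1) was at 96.3, 109 and 88.7 CPM and at 37.5, 49.8 and 34.7 CPM (-1.26 ± 0.21, adjusted p = 0.000552). None of these 3 long genes had overlapping groups. Kcnh5 (280 kb, Eag2), at 8.79 ± 6.17 and 3.40 ± 1.88 CPM, overlapped and passed in neither fit (adjusted p = 0.240, and 0.0214 with the block).

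Among shorter Kcnh genes, Kcnh2 was at 25.2 ± 8.93 and 26.6 ± 9.72 CPM. Kcnh3 (17.96 kb), a forebrain Elk channel gene, was at 60.5 ± 15.9 and 104 ± 7.82 CPM and passed with the block (0.83, adjusted p = 1.40e-05) but not without it (adjusted p = 0.0331). The 6 Kcna genes, axonal channels that set the firing threshold, had 0 genes past the test in either fit, with Kcna1 (the highest) at 394 ± 102 and 302 ± 40.8 CPM, Kcna6 (the longest, 32.3 kb) at 218 ± 3.54 and 190 ± 5.02 CPM and Kcna3 (the shortest, 1.97 kb) at 17.6 ± 2.99 and 24.8 ± 7.92 CPM. Of the Kcnc genes, which serve fast spiking, Kcnc1 (the highest) was at 116 ± 26.5 and 143 ± 14.8 CPM.

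The long Kcnc2 was at 21.1, 78.5 and 55.3 CPM and at 14.1, 34.6 and 16.7 CPM, overlapped, and passed with the block only (-1.17, adjusted p = 3.54e-06). Kcnc2 is typical of interneurons, and the part of the interneuron markers in it was not tested either.

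Kcnf1 was the single short gene that fell in the unblocked fit, while 3 did so with the block, Kcnf1, Kcnip3 and Kcnj4. It was at 417, 646 and 398 CPM in WT-Veh and at 281, 243 and 233 CPM in WT-Topot without overlap (-0.94 ± 0.20, adjusted p = 0.00551), from a gene of 4.79 kb at chr12:17178908-17183694. Its adjusted p rose to 0.0305 without WT-Veh replicate 2, the library at 646 CPM, and to 0.0124 and 0.0205 without WT-Topot replicates 2 and 3. The other silent subunits did not pass, with Kcns2 (the highest and shortest Kcns gene) at 62.7 ± 14.5 and 47.4 ± 8.35 CPM, Kcns3 (the longest) at 6.96 ± 2.95 and 5.55 ± 2.19 CPM, Kcnv1 at 213 ± 92.2 and 197 ± 52.2 CPM, Kcng1 at 89.8 ± 26.7 and 104 ± 4.21 CPM, and Kcng3 at 3.10 ± 1.18 and 4.67 ± 1.64 CPM.

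Of the genes for ion-activated channels, Kcnt2 (366 kb, a sodium-activated channel) was at 33.1, 25.4 and 38.6 CPM in WT-Veh and at 4.02, 6.30 and 6.42 CPM in WT-Topot (-2.52 ± 0.32, adjusted p = 3.02e-05). Its short relative Kcnt1 was at 22.4 ± 4.82 and 34.3 ± 5.51 CPM and did not pass. The small-conductance channel gene Kcnn2 (417 kb, chr18:45428659-45845678) was at 30.1, 30.7 and 28.8 CPM and at 13.7, 10.3 and 8.56 CPM (-1.44 ± 0.28, adjusted p = 0.00295), with adjusted p values of 0.0138 and 0.0155 without WT-Topot replicates 2 and 3. Both long genes had groups that did not overlap. Kcnn3 (the highest of its subfamily) was at 47.2 ± 12.3 and 36.3 ± 5.95 CPM and Kcnn1 (the shortest) at 33.1 ± 4.95 and 23.2 ± 4.69 CPM.

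Kcnab1 (269 kb, chr3:64913306-65182145), a β subunit of Kcna channels, was at 65.2, 153 and 99.1 CPM and at 26.5, 38.1 and 34.3 CPM (-1.67 ± 0.27, adjusted p = 0.000448), while the more abundant Kcnab2 was at 210 ± 12.2 and 170 ± 9.52 CPM and the short Kcnab3 at 10.7 ± 0.90 and 13.0 ± 4.63 CPM. The WT-Veh libraries of Kcnab1 differed among themselves by more than those of Kcnab2, yet all 3 lay above WT-Topot.

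Inward rectifiers and leak channels held both directions. Kcnj3 (GIRK1, 162 kb), which forms G-protein-gated channels, was at 89.5, 72.8 and 97.3 CPM in WT-Veh and at 30.8, 49.2 and 36.4 CPM in WT-Topot (-1.14 ± 0.22, adjusted p = 0.00257, and 0.0114 without WT-Topot replicate 1). Kcnj9 (GIRK3, 8.23 kb), another subunit of these channels, was at 76.7, 62.2 and 70.3 CPM and at 118, 147 and 114 CPM (0.86 ± 0.19, adjusted p = 0.00874). The 2 genes thus moved in opposite directions, each without overlap of the groups. The call of Kcnj9 was lost in 7 alternatives, with adjusted p values of up to 0.0639 without WT-Topot replicate 2, of 0.0399 without WT-Veh replicate 2 and of 0.0103 to 0.0133 without WT-Veh replicate 1 or WT-Topot replicates 1 or 3.

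The third GIRK gene, Kcnj6 (248 kb, the longest Kcnj gene), was at 25.1 ± 6.05 and 18.7 ± 6.85 CPM and did not pass, nor did the shortest, Kcnj11, at 30.6 ± 2.98 and 43.4 ± 3.93 CPM. The most abundant inward rectifier gene, Kcnj4, was at 243, 258 and 234 CPM and at 180, 131 and 136 CPM, without overlap, and passed with the block only (-0.72, adjusted p = 4.17e-06).

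Kcnk9 (TASK-3, an acid-sensitive leak channel, chr15:72342549-72376709) rose: its WT-Veh libraries were at 20.2, 14.5 and 21.3 CPM and its WT-Topot libraries at 46.9, 59.0 and 62.1 CPM (1.59 ± 0.24, adjusted p = 0.000235). All drug-treated libraries were above all controls. The most abundant leak channel gene, Kcnk1, was at 111 ± 39.8 and 106 ± 21.01 CPM, the longest, Kcnk10, at 24.0 ± 1.85 and 12.6 ± 1.81 CPM (-0.92, adjusted p = 0.0681, and 0.00326 with the block), and the shortest, Kcnk4, at 4.07 ± 0.75 and 4.84 ± 1.71 CPM. Kcnk2 (TREK-1, 136 kb), a channel gated by stretch and lipids, was at 122 ± 26.6 and 72.5 ± 3.62 CPM and passed with the block only (-0.73, adjusted p = 5.92e-05).

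Kcnj10 (Kir4.1), the inward rectifier typical of astrocytes, did not follow the astrocyte markers that fell. It was at 82.8, 249 and 36.3 CPM in WT-Veh and at 287, 206 and 131 CPM in WT-Topot, which overlapped, and was higher with the block (1.04, adjusted p = 5.57e-07) but not without it (0.76, adjusted p = 0.510). Over the alternatives its log2 fold change ranged from 0.34 to 1.78. Of the 7 astrocyte markers, 2 were lower and 0 higher, with Gfap at -2.54 ± 0.37 (adjusted p = 0.000174) and Slc1a3 at -1.52 ± 0.27 (adjusted p = 0.00106) and a median of -1.52. Aqp4 (-1.88) and Gja1 (-1.55) did not pass but were lower with the block. Aldh1l1 (-0.39), S100b (0.0012) and Sox9 (0.13) passed in neither fit, so the markers did not move together. Kcnj16, the partner of Kir4.1, was at 7.48 ± 5.50 and 7.99 ± 1.28 CPM.

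Some genes were near the limit of detection. Kcne2 had 0 counts in each WT-Veh library and was at 0.335, 0.859 and 3.00 CPM in WT-Topot, where 1 library is well above the floor of 3 counts, and no fold change is given. Kcne1l was at 0 to 9.78 CPM over the 12 libraries, Kcnrg at 0 to 3.43 CPM, Kcnu1 at 0.585 to 2.88 CPM and Kcnd3os at 0.391 to 2.39 CPM, and none of these differences was detectable at this depth.

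**Figure D3:**
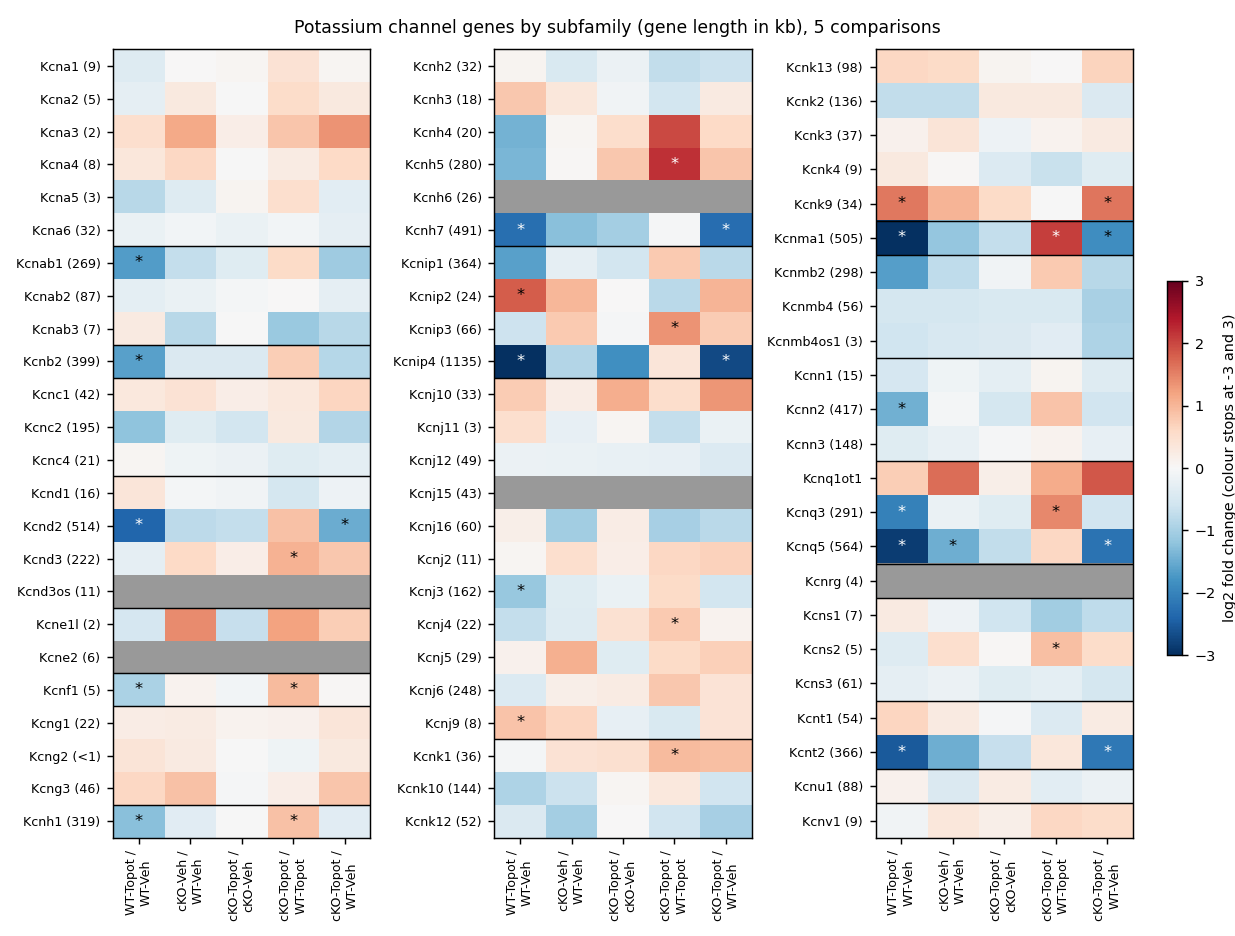
Log2 fold changes (colour, stopping at -3 and 3) of 71 of the 75 genes by subfamily in 5 comparisons, with gene length in kb after the name. Stars mark an adjusted p under 0.01 and horizontal lines part the subfamilies. Grey rows have at most 3 counts in every library of a group, and the first column holds 13 lower and 3 higher genes.

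Deletion of Top1 without drug changed fewer potassium channel genes than topotecan did in WT cells, by a smaller margin with the block than without it. In Top1 cKO-Veh against WT-Veh, 1 gene was lower and 0 higher, where 0.219% of all genes were lower and 0.0802% higher. At an unadjusted p under 0.05 there were 13 lower and 11 higher, while DESeq2 called 3 and 0. Shares of all genes were not computed for counts at an unadjusted p or by DESeq2, here or below, so such counts have no background beside them. The blocked fit called 9 lower and 10 higher, against 5.15% and 4.51% of all genes. For WT-Topot against WT-Veh it had called 19 lower and 5 higher. The median log2 fold change was -0.44 in the long genes, of which 18 of 21 were negative, and 0.10 in the shorter ones (-0.05 and 0.00 over all genes).

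The gene lower in the unblocked fit was Kcnq5, at 84.9, 76.7 and 62.1 CPM in Top1 cKO-Veh against the WT-Veh libraries at 168 to 231 CPM (-1.47 ± 0.20, adjusted p = 0.00361). The groups did not overlap, but the adjusted p was 0.0162 without Top1 cKO-Veh replicate 2 and 0.0209 with low counts filtered. The 9 genes lower with the block were Kcnq5, Kcnt2 (-1.43), Kcnh7 (-1.28), Kcnma1, Kcnk12 (-1.004), Kcnip4 (-0.83), Kcnd2 (-0.79), Kcnk2 (-0.72) and Kcnab1 (-0.66), and 8 of them are longer than 100 kb. Kcnk12, a gene of 52.2 kb for a 2-pore channel subunit, was at 23.6 ± 3.73 CPM in WT-Veh and 11.6 ± 2.53 CPM in Top1 cKO-Veh.

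The 10 genes higher with the block included 8 of at most 100 kb, with Kcnd3 (0.63) and Kcnq1ot1 the other two. Kcna3 (1.13), Kcnip2 (1.06), Kcnk9 (1.04), Kcnip3 (0.82), Kcna4 (0.63), Kcnj9 (0.63) and Kcnj10 (0.49) were 7 of the 8. Kcnq1ot1, an antisense RNA from within the Kcnq1 gene, was at 4.06 ± 2.05 CPM in WT-Veh and 12.2 ± 5.45 CPM in Top1 cKO-Veh (1.64, adjusted p = 0.000166). None of these 10 passed without the block, where Kcna3 came closest (adjusted p = 0.0636).

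Topotecan and deletion were also compared directly, with no WT-Veh library in the fit. In WT-Topot against Top1 cKO-Veh, 8 genes were lower and 0 higher (2.15% and 0.51% of all genes), and 23 lower and 3 higher with the block (8.33% and 5.06%), while at an unadjusted p under 0.05 there were 29 and 8 and DESeq2 called 13 and 1. The 8 were Kcnma1 (-2.80 ± 0.35), Kcnip4 (-2.23), Kcnq3 (-1.83), Kcnd2 (-1.61), Kcnip3 (-1.41), Kcnq5 (-1.40), Kcnn2 (-1.39) and Kcnf1 (-1.05), with adjusted p values from 0.000142 to 0.00763, and for each of them all WT-Topot libraries were below all Top1 cKO-Veh libraries. These genes were chosen by the test, which favours groups that do not overlap. The share of all genes without overlap was not computed. The call of Kcnn2 was lost with low counts filtered (adjusted p = 0.0133) and without WT-Topot replicate 2 (0.0226) or 3 (0.0407) or Top1 cKO-Veh replicate 2 (0.0437). Without Top1 cKO-Veh replicate 3 the count was 16. All 21 long genes had a negative value here (median -1.02, and -0.43 over all long genes), and the 53 shorter ones had a median of -0.05.

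Drug treatment of Top1 cKO cultures, which retained some cells with TOP1, gave 0 lower and 0 higher genes by the edgeR quasi-likelihood test. In this comparison, Top1 cKO-Topot against Top1 cKO-Veh, 0.0146% of all genes were lower and 0% higher. The part of the cells that kept TOP1 in the differences below was not tested. At an unadjusted p under 0.05 there were 6 lower and 5 higher, and DESeq2 called 1 lower and 0 higher. The blocked fit called 4 lower and 3 higher, against 3.02% and 1.49%. The 4 lower genes were Kcnip4, Kcnq5 (-0.76), Kcnd2 (-0.71) and Kcnma1 (-0.69), and the 3 higher ones Kcnj10 (0.98), Kcnk1 (0.47) and Kcnj4 (0.46).

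Kcnip4 was at 49.3, 41.9 and 31.6 CPM in Top1 cKO-Veh and at 8.36, 13.6 and 11.8 CPM in Top1 cKO-Topot, which did not overlap (-1.85 ± 0.28, adjusted p = 0.0175, and 2.86e-14 with the block). This difference was the nearest to the threshold in the unblocked fit. The median log2 fold change of the long genes was -0.37, with 16 of 21 negative, beside -0.12 over all long genes.

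The test of whether the effect of topotecan differed between the genotypes gave 2 higher and 0 lower genes, where 0.693% and 0.0656% of all genes were called. Higher here means an effect that is less negative, or more positive, in Top1 cKO cells than in WT cells. Kcnma1 differed by 3.24 ± 0.44 on the log2 scale (adjusted p = 0.000772), with -3.96 in WT and -0.71 in Top1 cKO cells, and Kcnq5 by 2.11 ± 0.29 (adjusted p = 0.000802), with -2.86 and -0.75. With the block 14 were higher and 4 lower (4.24% and 2.66%), and without it 19 and 4 at an unadjusted p under 0.05 and 7 and 1 by DESeq2. The lower ones were Kcnip2 (-1.81), Kcnj9 (-1.10), Kcnk9 (-0.9999) and Kcnh3 (-0.96), genes whose values in WT-Topot were above WT-Veh.

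The topotecan effects in WT and in Top1 cKO cells rest on separate libraries. They had the same sign in 43 of 75 genes, with a Spearman correlation across genes of 0.349 as a description, and in 21 of 21 long genes the effect was smaller in size in Top1 cKO cells. These counts were not computed over all genes or over all long genes. The median effect over all long genes was -0.42 in WT and -0.12 in Top1 cKO cells, so it too was smaller after deletion. The interaction had a median of 1.24 over the long genes and -0.10 over the shorter ones (0.33 and -0.07 over all genes).

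**Figure D4:**
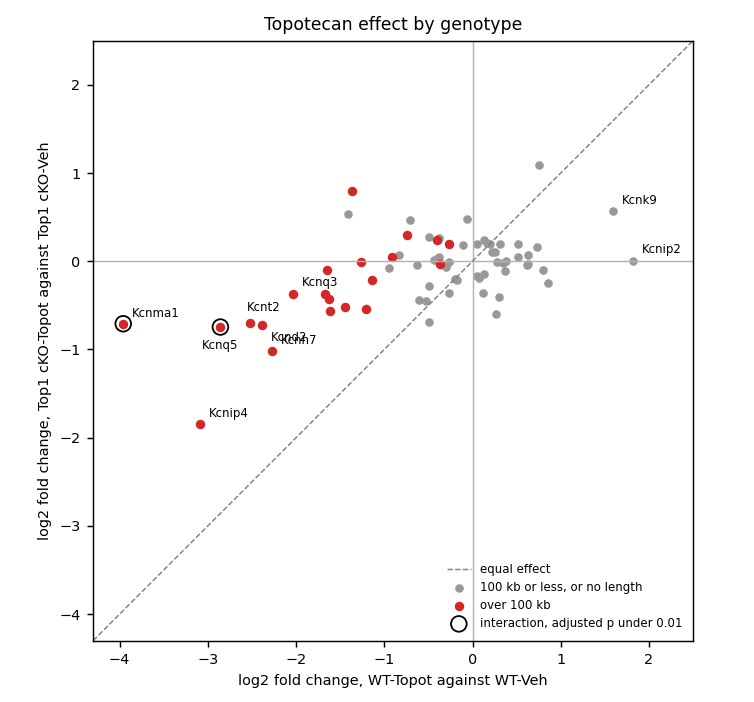
Log2 fold change with topotecan in WT cells (x axis) and in Top1 cKO cells (y axis) for each potassium channel gene. Red points are longer than 100 kb, the dashed line marks an equal effect, rings mark the 2 genes whose effects differed (Kcnma1 and Kcnq5), and 5 genes with at most 3 counts in every library of a group are not drawn.

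With topotecan present, Top1 cKO cells held more of several potassium channel RNAs than WT cells. In Top1 cKO-Topot against WT-Topot, 10 genes were higher and 0 lower (2.55% and 1.79% of all genes), and 20 higher and 4 lower with the block (8.02% and 7.08%), while at an unadjusted p under 0.05 there were 28 higher and 9 lower and DESeq2 called 11 and 0. Of the 10, 5 were among the 21 genes over 100 kb and 5 among the 53 shorter ones. The median log2 fold change was 0.75 in the long genes and 0.04 in the shorter ones (0.29 and -0.06 over all genes). The count was 5 without Top1 cKO-Topot replicate 2 and 5 with low counts filtered. Some of these genes also had higher means without drug. In Top1 cKO-Veh and WT-Veh, Kcnd3 was at 190 and 125 CPM, Kcnip3 at 185 and 108, Kcnk1 at 150 and 111, and Kcns2 at 88.0 and 62.7. The interaction passed in neither fit for these genes. Kcnma1, Kcnq3, Kcnh1 and Kcnj4 had lower means in Top1 cKO-Veh than in WT-Veh.

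The long ones were Kcnh5 (2.19 ± 0.46, adjusted p = 0.00443), Kcnma1 (2.07 ± 0.32, adjusted p = 0.000187), Kcnq3 (1.45 ± 0.27, adjusted p = 0.00165), Kcnd3 (1.05 ± 0.21, adjusted p = 0.00306) and Kcnh1 (0.89 ± 0.20, adjusted p = 0.00874). Kcnh5 (Eag2) was at 2.35, 2.29 and 5.57 CPM in WT-Topot and at 11.2, 8.97 and 25.8 CPM in Top1 cKO-Topot, without overlap, but the library at 25.8 CPM, Top1 cKO-Topot replicate 3, stood well above the other two, and the adjusted p was 0.0205 without it. Kcnd3 was at 191, 290 and 168 CPM in Top1 cKO-Topot, each above the WT-Topot libraries at 78.4 to 134 CPM (adjusted p = 0.0443 without Top1 cKO-Topot replicate 2). Kcnh1 lost its call without any of 3 libraries, WT-Topot replicates 1 and 3 (adjusted p = 0.0277 and 0.0396) and Top1 cKO-Topot replicate 2 (0.0404). Kcnq3 did so without Top1 cKO-Topot replicate 2 (0.0121).

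The shorter ones were Kcnip3 (1.36 ± 0.18), Kcnk1 (0.96 ± 0.18), Kcnf1 (0.96 ± 0.17), Kcns2 (0.91 ± 0.21) and Kcnj4 (0.79 ± 0.18). Kcnip3 (KChIP3, 65.6 kb), a calcium sensor also known as a transcription factor, was at 67.4, 71.3 and 69.8 CPM in WT-Topot and at 200, 157 and 180 CPM in Top1 cKO-Topot (adjusted p = 3.12e-05). The 3 drug-treated WT libraries were nearly equal, below WT-Veh at 71.4, 150 and 102 CPM and below Top1 cKO-Veh at 154, 213 and 188 CPM. Kcnk1 was at 117, 118 and 81.4 CPM and at 228, 214 and 176 CPM (adjusted p = 0.00189, and 0.0117 without Top1 cKO-Topot replicate 2).

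Kcnf1 was near the level of the vehicle groups, at 591, 443 and 441 CPM in Top1 cKO-Topot against 281, 243 and 233 CPM in WT-Topot (adjusted p = 0.000741). In Top1 cKO-Veh it was at 521 ± 65.7 CPM. Its interaction passed with the block (adjusted p = 0.000207) but not without it (0.149). Kcns2 was at 55.6, 38.9 and 47.5 CPM and at 81.7, 76.7 and 110 CPM (adjusted p = 0.00856), and Kcnj4 at 301, 208 and 268 CPM beside 131 to 180 CPM (adjusted p = 0.00899). None of the 3 had overlapping groups. The calls of Kcns2 and Kcnj4 were lost without WT-Topot replicate 2 (adjusted p = 0.0319 and 0.0204) or 3 (0.0123 and 0.0217), that of Kcns2 also without Top1 cKO-Topot replicate 2 (0.0129) or 3 (0.0212), and that of Kcnj4 without Top1 cKO-Topot replicate 1 (0.0424).

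**Figure D5:**
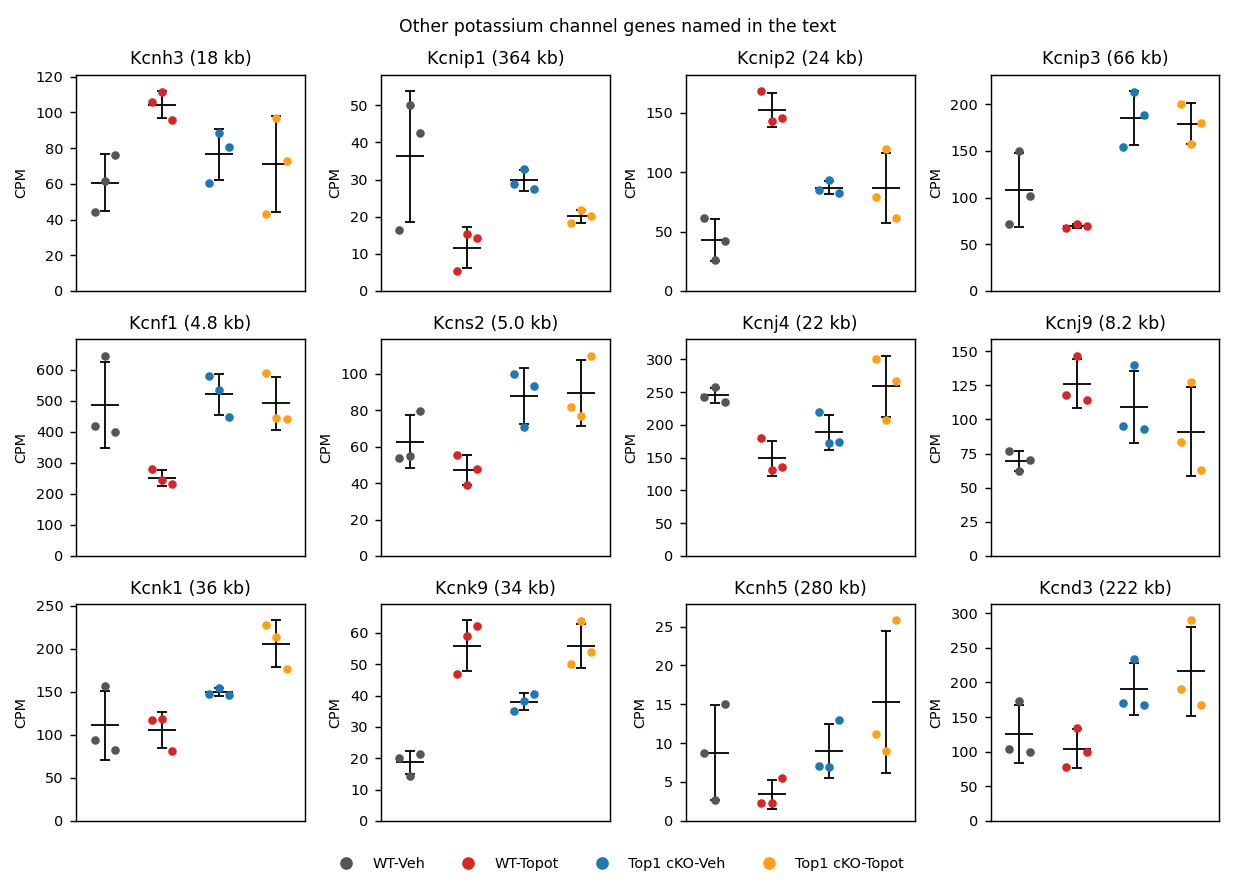
CPM in the 4 groups of 12 further genes, with gene length in each panel title. Dots are libraries, horizontal bars the mean and error bars the SD (n = 3). Kcnip2 and Kcnk9 are higher in WT-Topot than in WT-Veh, and Kcnf1 is lower in WT-Topot than in the other groups.

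Cells with both treatments were set against cells with neither. In Top1 cKO-Topot against WT-Veh, 6 genes were lower and 1 higher (2.11% and 0.824% of all genes), and 12 lower and 11 higher with the block (7.01% and 5.82%). The 6 were Kcnip4 (-2.70 ± 0.28), Kcnh7 (-2.28 ± 0.33), Kcnq5 (-2.20 ± 0.21), Kcnt2 (-2.15 ± 0.35), Kcnma1 (-1.87 ± 0.23) and Kcnd2 (-1.50 ± 0.23), with adjusted p values from 1.80e-06 to 0.000571. All 6 are longer than 100 kb, where 8.58% of all long genes were lower, and each had all its Top1 cKO-Topot libraries below all WT-Veh libraries. These genes too were chosen by the test, so the lack of overlap adds no further support.

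Kcnk9 was the gene that rose, at 50.2, 63.8 and 53.8 CPM in Top1 cKO-Topot (1.61 ± 0.25, adjusted p = 0.000388). The count of higher genes was 2, 4 and 6 without WT-Veh replicate 1, 2 or 3, and 3 and 7 without Top1 cKO-Topot replicate 1 or 3. The long genes had a median of -0.81 and the shorter ones of 0.26 (-0.16 and 0.05 over all genes).

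Genes of other names whose products bind, anchor or modulate potassium channels, and related channels, gave a list of 33 genes, 30 of them at 1 CPM or more. In WT-Topot against WT-Veh, 7 were lower and 1 higher, and 9 and 3 with the block, with a median of -0.14. Of all genes 3.56% were lower and 1.19% higher (8.71% and 5.62% with the block), and of all genes over 100 kb 17.8% were lower. Of the lower genes, 6 were Cntnap2 (Caspr2, which clusters Kcna channels on axons), the Kv4 partners Dpp10 (-2.80 ± 0.26) and Dpp6 (-2.18 ± 0.22), Ank3 (ankyrin-G, which anchors Kcnq channels at the axon initial segment, -1.95 ± 0.23), and the scaffold genes Dlg2 (-1.58 ± 0.19) and Dlg1 (-1.06 ± 0.19). The gene that rose was Cntn2 (0.95 ± 0.20), whose product joins Caspr2 on axons. All 7 lower genes are over 200 kb long, and Cntn2 spans 33.5 kb.

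Of the genes for A-type channels and their partners, Kcnd2, Kcnip4, Dpp6 and Dpp10 were thus lower, while Kcnip2 was higher and Kcnd1 and Kcnd3 did not pass. Dpp6 was at 260, 281 and 203 CPM in WT-Veh and at 45.6, 72.7 and 44.1 CPM in WT-Topot, and Dpp10 at 93.6, 105 and 147 CPM and at 11.4, 15.5 and 22.7 CPM, both without overlap. Cntnap2 was at 10.8, 14.5 and 7.49 CPM and at 0, 0 and 0.428 CPM, so near to the floor that no fold change is given.

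In Top1 cKO-Veh against WT-Veh 1 gene of the list was lower, Dlg2 (-1.19 ± 0.18, adjusted p = 0.00694), and 0 were higher (0.219% and 0.0802% of all genes). With the block 8 were lower and 3 higher (5.15% and 4.51%). In Top1 cKO-Topot against Top1 cKO-Veh 0 were lower and 0 higher (0.0146% and 0% of all genes), and 5 and 0 with the block (3.02% and 1.49%). Against WT-Veh 5 were lower, among them Cntnap2, Dpp10, Dlg2 and Dpp6, and 0 higher (2.11% and 0.824%). With the block these were 9 and 1 (7.01% and 5.82%). Against WT-Topot, Dpp6 (1.24 ± 0.20) and Ank3 (1.03 ± 0.20) were higher in Top1 cKO-Topot, and Lrrc55 (a γ subunit of BK channels, -1.47 ± 0.25) was lower. Of all genes 2.55% were higher and 1.79% lower here. With the block 6 were higher and 4 lower (8.02% and 7.08%). The topotecan effect differed between the genotypes for Dpp6 (1.69 ± 0.27, adjusted p = 0.00235) and Ank3 (1.81 ± 0.31, adjusted p = 0.00388), both higher. Of all genes 0.693% were higher and 0.0656% lower in this test. With the block 7 were higher and 3 lower (4.24% and 2.66%). WT-Topot was lower than Top1 cKO-Veh for 4 of the genes, Cntnap2, Dpp10, Dpp6 and Ank3, and higher for 0 (2.15% and 0.51% of all genes). With the block these were 9 and 2 (8.33% and 5.06%).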

How the data were processed

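RNA from 12 cortical neuron cultures was sequenced as 50 bp paired-end reads. The authors used TagDust as a read filter and TopHat, at its defaults, as the aligner to mm9, removed rRNA reads and deposited raw counts over RefSeq exons, summed by gene symbol. The counting program, its use of strand and the software versions are not given in the sources used here. Reads of near-identical or overlapping genes may be shared between symbols.

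The sample labels gave the groups and the replicate numbers. Library sizes were scaled with TMM, and 7 comparisons were fitted on the counts of all 23893 genes with no filter by the edgeR quasi-likelihood test (edgeR 4.0.16, R 4.3.3), 2 groups at a time and all 12 libraries for the interaction, with Benjamini-Hochberg adjustment and an FDR of 0.01. Alternatives were a replicate block, DESeq2 size factors, filterByExpr, the DESeq2 1.42.0 Wald test, an FDR of 0.05 and leaving out each library. Shares of all genes were computed at the FDR of 0.01 with and without the block, and not for the other alternatives or for groups that did not overlap. The fit was tested on counts simulated for WT-Topot against WT-Veh without pairing of libraries. That test cannot show how the fit behaves on paired libraries. Same-numbered libraries of different groups deviated together (correlations of 0.261 to 0.484 in 18 pairs, and -0.382 to -0.049 in 36 pairs with different numbers), so the numbers pair the samples, and the counts of calls with the block are given beside those without it. The labels do not say what a number shares. Where the block is not named, calls, SE and p-values are those of the fit without it, which ignores this pairing. The study gives the libraries of a group as separate cultures, so these p-values measure the spread between cultures of a group. They do not measure the spread of the differences between paired libraries, and a gene that did not pass may differ consistently within pairs. Libraries of a group differed by more than sampling noise (dispersion index 5.71 to 9.36). Counting intervals were not used, and floors of 3 counts cover counting error only.

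Gene lengths are genomic spans in GENCODE vM1 (NCBIM37, the same build as mm9), with 21013 symbols matched directly, 1046 through a synonym and 1834 not matched. The potassium channel genes and the lists of partners and markers were chosen with earlier results of these data known. Named genes were those past the FDR in any comparison, the most abundant, longest and shortest of each subfamily, and partner genes past the FDR; genes that passed with the block only were added after their values were seen. A few genes that the rule names are not reported here.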

Additional observations from a re-analysis of the deposited data

Results flagged for a closer look

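The difference in the effect of topotecan between Top1 cKO and WT cells passed the interaction test for Kcnma1, at 3.24 on the log2 scale, and for Kcnq5, at 2.11. Adjusted p values over the alternatives are given with the other results that depend on the processing.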

How the results depend on the processing

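The numbers of potassium channel genes past the threshold changed with the replicate block, that is, with the pairing of same-numbered libraries. With it WT-Topot against WT-Veh had 5 higher genes, Top1 cKO-Veh against WT-Veh 9 lower and 10 higher, topotecan in Top1 cKO cells 4 and 3, Top1 cKO-Topot against WT-Topot 4 and 20, against WT-Veh 12 and 11, the drug directly against deletion 23 and 3, and the interaction 4 and 14. Filtering low counts with filterByExpr changed the Top1 cKO-Veh count of lower genes to 0 and the count of 10 higher in Top1 cKO-Topot against WT-Topot to 5. DESeq2 gave 3 lower in Top1 cKO-Veh, 1 lower in Top1 cKO-Topot against Top1 cKO-Veh, 4 higher against WT-Veh, 13 lower and 1 higher when Top1 cKO-Veh was set beside WT-Topot, and 1 lower and 7 higher in the interaction. An FDR of 0.05 gave in these comparisons 2 lower, 1 lower, 6 higher, 15 lower and 1 higher, and 1 lower and 6 higher, and 1 lower in Top1 cKO-Topot against WT-Topot. The causes of these differences were not tested.

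Leaving out each library in turn gave 11 to 15 lower and 2 to 4 higher in WT-Topot, 0 to 1 lower in Top1 cKO-Veh, 0 to 1 lower and 0 to 1 higher in Top1 cKO-Topot against Top1 cKO-Veh, 0 to 1 lower and 5 to 12 higher against WT-Topot, 6 to 8 lower and 1 to 7 higher against WT-Veh, 7 to 16 lower and 0 to 1 higher in WT-Topot against Top1 cKO-Veh, and 0 to 1 lower and 2 to 4 higher in the interaction.

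The medians over long genes kept their sign in each setting run. They moved by more than the spread between replicates in WT-Topot (-1.66 at a limit of 200 kb, -1.53 at 5 CPM, -1.73 to -1.40 without single libraries), in Top1 cKO-Topot against WT-Veh (-0.70 at 5 CPM, -0.96 to -0.59) and in the drug directly against deletion (-1.28 at 200 kb). Medians of the shorter genes stayed near 0 and changed sign in places when single libraries were left out, an alternative added after seeing the data: -0.052 to 0.22 in WT-Topot, -0.043 to 0.13 in Top1 cKO-Topot against Top1 cKO-Veh, -0.049 to 0.18 against WT-Topot (0.10 at 200 kb), 0.089 to 0.33 against WT-Veh and -0.11 to -0.0014 in the drug directly against deletion. With Kcne2 at its bound or left out, also added, the median in Top1 cKO-Veh was 0.08.

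Over single genes, 44 results passed the threshold and were run under 452 alternatives, of which 413 kept the call, 39 lost it and 0 changed direction; the 13 results that lost it at least once did so without a library. The interaction of Kcnma1 kept its call in 16 of 16 alternatives (adjusted p at most 0.00444) and that of Kcnq5 in 16 of 16 (at most 0.00314). Kcnj10, which did not pass in Top1 cKO-Veh against WT-Veh (0.22), ranged from -0.21 (without WT-Veh replicate 3) and -0.011 (without replicate 1) to 1.24 (without replicate 2). At 3 counts a library, genes under about 1 CPM could not be compared.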
